A study of Homo sapiens with 8 samples.

Results

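*CXXC4*, *AXIN2*, *LGR5*, *RNF43*, *ZNRF3*, *NKD1*, *TCF7*, *LEF1*, *DKK1* and *APCDD1* are 10 genes known as targets or inhibitors of the WNT pathway, and their RNA was measured in 2 colorectal cancer cell lines with and without the compound Z325. *CXXC4* was included because its change with Z325 differed between the lines, and the other genes were added by name because they belong to the same pathway. All 10 are among the 63241 genes listed for NCI-H716. Only 3 of them, *CXXC4*, *TCF7* and *LEF1*, are among the 28043 genes used for HCT116, because the HCT116 table used here ends early on chromosome 9. The members on chromosomes 10, 12, 16, 17, 18 and 22 were not analysed here in HCT116.

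Z325 is ZINC000101867325, which the study selected by docking as a candidate inhibitor of the fibroblast growth factor receptors. The 8 libraries form 4 groups of 2, control and Z325-treated HCT116 (labelled Test) and control and Z325-treated NCI-H716 (also labelled Test). The labels give no dose, time or vehicle for the sequenced cells, and about 100 cells went into each reaction before full-length cDNA amplification. HCT116 is an established adherent line from a colorectal carcinoma with an activating mutation of its β-catenin gene, and NCI-H716 is an established colorectal line with neuroendocrine features. Each line is a single established line, so a difference between HCT116 and NCI-H716 is a difference between 2 lines and not between classes of tumour. With 2 libraries a group, p-values measure the spread between these libraries only, and an exact permutation test of a single gene could not reach 0.05, so p-values come from a model fitted across all tested genes.

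Library totals ran from 10210239 to 19738840 counts in NCI-H716 and from 13183792 to 13396225 in 3 of the HCT116 libraries, while HCT116 Z325 replicate 2 held 3434620. A count of 0 in that library allows up to 0.873 CPM (counts scaled to a common library total), against at most 0.228 in the other HCT116 libraries, where these limits take 3 counts of the total and cover counting error only. HCT116 totals cover only the genes listed up to chromosome 9, so totals and CPM are on different scales in the 2 lines. Of 6 enteroendocrine markers, 5 had at least 10 counts in every NCI-H716 library, and *NEUROD1* had at most 1. Of 8 epithelial markers, 5 reached that level in NCI-H716, where the summed level of the list ran from 755 to 766 CPM in the controls and from 643.0 to 643.4 CPM with Z325. The epithelial marker *CDX1* was at 0 in every NCI-H716 library, and *CDH1* had at most 7 counts there. Over 4 fibroblast markers the summed level ran from 241 to 270 CPM in the NCI-H716 controls and from 309 to 357 CPM with Z325, with 2730 to 7033 counts of *COL3A1* and at most 1 of *COL1A1*. The enteroendocrine sum ran from 2265 to 2717 CPM in the controls and from 1917 to 2045 CPM with Z325. The part of these marker shifts in the results on the members was not tested. In HCT116, *EPCAM* held 5665 to 21581 counts, *VIL1* at most 6, and the leukocyte, endothelial and fibroblast markers listed in that table at most 8. In these bulk samples, fewer cells of a kind and less RNA per cell cannot be told apart.

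WNT ligands bind a frizzled receptor with an LRP co-receptor, Dishevelled proteins carry the signal inside the cell, and the complex of AXIN, APC and GSK3 stops destroying β-catenin. β-catenin then enters the nucleus and activates genes together with the TCF and LEF factors. Several of those targets, *AXIN2*, *NKD1*, *RNF43*, *ZNRF3*, *DKK1* and *APCDD1*, are themselves brakes on the pathway. As targets, they and the R-spondin receptor gene *LGR5* are widely used to read its activity. In the gut epithelium the pathway maintains the crypt stem cells that *LGR5* marks.

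RefSeq promoter windows of GRCh38.p14, which run from 250 bases before to 50 bases after a transcription start, were matched by symbol for 6 of the 10 members, in 8 windows. TCF and LEF proteins recognise a core written CTTTGA or CTTTGT, and both were searched on both strands without overlap between them. Of 35116 windows of 300 bases, 12.92% held CTTTGA, 16.07% held CTTTGT and 26.17% held either. The windows of *DKK1*, *TCF7* and *CXXC4* are shown, because these are the members whose values differed most between control and Z325 in at least 1 line. They are written 5′ to 3′ in the direction of the gene, and capitals mark either core on either strand.
DKK1, chr10:52314031-52314330, plus strand: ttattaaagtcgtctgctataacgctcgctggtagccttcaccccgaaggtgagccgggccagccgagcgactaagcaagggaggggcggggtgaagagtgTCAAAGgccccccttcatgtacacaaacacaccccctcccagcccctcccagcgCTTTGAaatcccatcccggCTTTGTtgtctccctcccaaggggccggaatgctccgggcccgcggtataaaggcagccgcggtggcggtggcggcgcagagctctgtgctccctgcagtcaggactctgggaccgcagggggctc
TCF7, second window, chr5:134123368-134123667, plus strand: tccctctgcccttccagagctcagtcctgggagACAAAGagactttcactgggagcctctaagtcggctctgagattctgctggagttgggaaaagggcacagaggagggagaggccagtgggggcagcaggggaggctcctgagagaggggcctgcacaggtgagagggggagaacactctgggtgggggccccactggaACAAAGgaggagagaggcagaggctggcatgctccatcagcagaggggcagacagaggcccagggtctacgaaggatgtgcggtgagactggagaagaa
CXXC4, chr4:104494845-104495144, minus strand: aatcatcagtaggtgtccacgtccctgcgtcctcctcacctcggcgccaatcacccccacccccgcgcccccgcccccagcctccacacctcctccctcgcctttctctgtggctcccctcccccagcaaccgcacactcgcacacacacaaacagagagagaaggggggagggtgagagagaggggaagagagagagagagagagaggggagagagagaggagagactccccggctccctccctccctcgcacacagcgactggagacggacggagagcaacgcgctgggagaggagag
The *DKK1* window held CTTTGA at bases -149 (minus strand) and -95 and CTTTGT at base -76 from the start. The second *TCF7* window held CTTTGT on its minus strand at bases -217 and -49, and the first *TCF7* window held neither core. Both *RNF43* windows held CTTTGT, at base -90 in the first and on the minus strand at base -135 in the second. Neither core was found in the windows of *CXXC4*, *LEF1* and *APCDD1*, and a match or its absence is a description of these letters only.

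In NCI-H716, *DKK1* was less abundant in both Z325 libraries than in both controls, *CXXC4* was more abundant in both, and *RNF43* and *ZNRF3* overlapped between the groups. The other 6 members had too few counts to be tested. *CXXC4* was chosen on its response, so its calls are left out here. At an adjusted p under 0.05 in edgeR's quasi-likelihood test, *DKK1*, *RNF43* and *ZNRF3* were not called, where 0.502% of all 14142 tested genes were (0.403% higher and 0.099% lower). Before adjustment, 16.9% of all tested genes had a p under 0.05, and *DKK1* was the member counted when *CXXC4*, which was chosen on its response, is set aside. DESeq2, which called 2.57% of all tested genes, called *DKK1* but not *RNF43* or *ZNRF3*.

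*DKK1* (ENSG00000107984, chromosome 10, 52314281 to 52318042, plus strand) encodes a secreted protein that blocks the LRP co-receptors. Its counts were 147 and 154 in control replicates 1 and 2 and 44 and 95 in Z325 replicates 1 and 2. In CPM scaled by the trimmed mean of M values (TMM) these were 11.1, 14.9, 3.35 and 4.76. Both Z325 libraries lay below both controls, as did those of 25.1% of all tested genes. The level was 13.004 ± 2.68 CPM in the controls and 4.06 ± 0.998 with Z325 (SD, n = 2), a log2 fold change of -1.66 with a standard error of 0.31. The unadjusted p in edgeR was 0.00029 and the adjusted p 0.0540, just above the threshold. Over 11 alternatives the log2 fold change stayed between -1.95 and -1.43 and the adjusted p ran from 4.2e-07 to 0.156, with 6 of the 11 under 0.05. Over all tested genes the calls also moved with the alternatives, from 6 with limma to 2397 with the replicate block, against 71 in the edgeR test above. On leaving out a library, the log2 fold change of *DKK1* ran from -1.93 (without Z325 replicate 2) to -1.43 (without control replicate 2). The antisense gene *PRKG1-AS1* shares 227 of the exon bases of *DKK1* (10.2%). Its own counts were 6, 5, 10 and 10 in the same order, and without strand the reads of the pair cannot be told apart in the shared bases.

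*APCDD1*, a membrane inhibitor of WNT ligands on chromosome 18, had 0 counts in all 4 NCI-H716 libraries. A count of 0 there allows up to 0.294 CPM in the shallowest library and 0.152 in the deepest.

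*LGR5* (chromosome 12), the R-spondin receptor that marks intestinal stem cells, had 3 and 0 counts in the controls and 1 and 5 with Z325. Its groups overlapped, at or near the limit that a count of 0 allows.

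*RNF43* (ENSG00000108375, chromosome 17, 58353676 to 58417595, minus strand) and *ZNRF3* (ENSG00000183579, chromosome 22, 28883572 to 29057488, plus strand) encode the paired ubiquitin ligases that remove frizzled receptors from the cell surface. *RNF43* had 11.8 and 13.8 CPM in the controls and 9.07 and 16.5 CPM with Z325. The lowest and the highest values were thus both in Z325 libraries. The log2 fold change was 0.01 with a standard error of 0.30 and an adjusted p of 0.990, and it was -0.48 without Z325 replicate 2 and 0.38 without Z325 replicate 1. Of the exon bases of *RNF43*, 68.4% are shared on the same strand with ENSG00000285897, whose own counts were 0, 0, 0 and 6, so how the reads were divided between them is uncertain. *ZNRF3* had 4.31 and 5.999 CPM in the controls and 4.72 and 4.71 CPM with Z325, so both Z325 values lay between the controls. Its log2 fold change was -0.12 with a standard error of 0.35 and an adjusted p of 0.895, and it was 0.14 without control replicate 2.

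*CXXC4* (ENSG00000168772, chromosome 4, 104468308 to 104494901, minus strand) encodes a protein that binds Dishevelled inside the cell and holds the pathway back. In NCI-H716 its counts were 246 and 247 in the controls and 419 and 628 with Z325. In TMM-scaled CPM these were 18.6, 23.9, 31.9 and 31.5. Both Z325 libraries lay above both controls, which 24.3% of all tested genes also showed in that direction. The level was 21.2 ± 3.76 CPM in the controls and 31.7 ± 0.305 with Z325 (SD, n = 2), with a log2 fold change of 0.58 and a standard error of 0.21. Because *CXXC4* was chosen on its response, these values are a description and no test is given. The log2 fold change was 0.41 without control replicate 1 and 0.78 without control replicate 2. The antisense gene *CXXC4-AS1* shares 212 exon bases with it (2.61%) and had 1, 2, 5 and 6 counts.

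*NKD1* (chromosome 16), another inhibitor that binds Dishevelled, had 2 and 5 counts in the controls and 11 and 1 with Z325. *AXIN2* (chromosome 17), the scaffold of the destruction complex and a common target, had 2 and 2 counts in the controls and 8 and 1 with Z325. Both genes were highest in Z325 replicate 1 and lowest in Z325 replicate 2, so their groups overlapped. Of the exon bases of *AXIN2*, 25.3% are shared on the same strand with ENSG00000266076, which had 0 counts throughout.

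The pair of nuclear factors among the members was near or at 0 in NCI-H716. *TCF7* (chromosome 5) had 2 and 0 counts in the controls and 7 and 1 with Z325. *LEF1* (chromosome 4) had 0 and 0 counts in the controls and 1 and 0 with Z325. *TCF7* was again highest in Z325 replicate 1, as were *NKD1* and *AXIN2*, while *LGR5* was highest in Z325 replicate 2. Among the 6 untested members the highest count in any NCI-H716 library was 11.

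**Figure D1:**
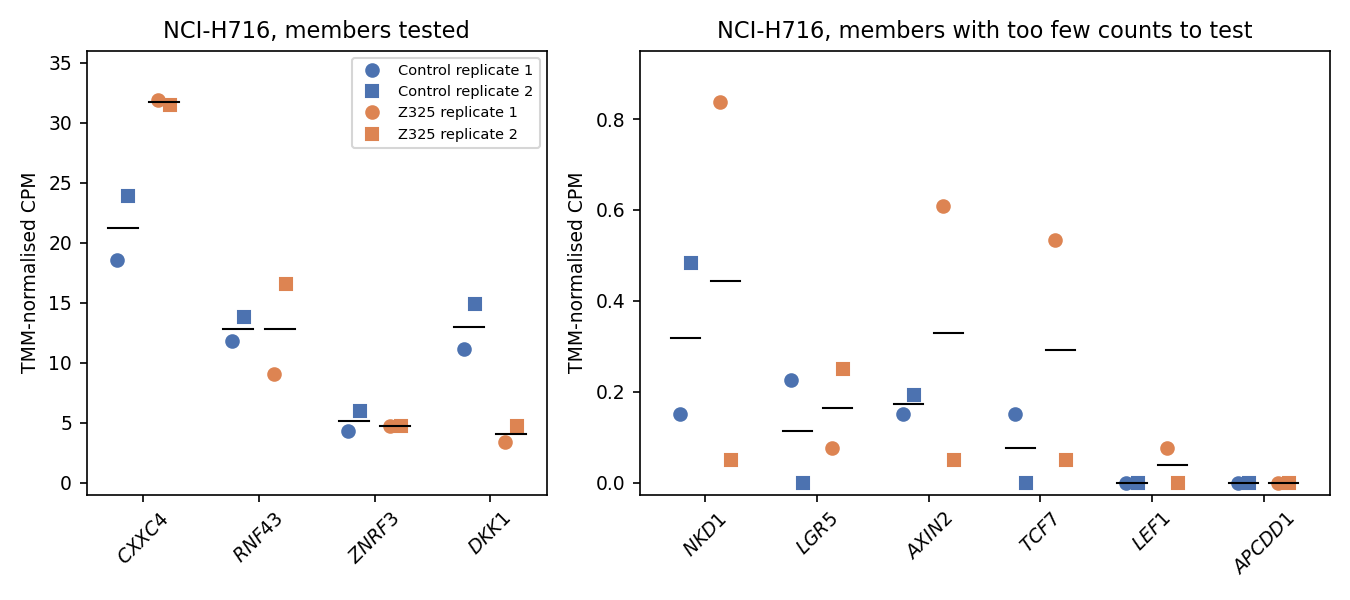
TMM-scaled CPM (vertical axes, linear) of the 10 genes in the 4 NCI-H716 libraries, with circles and squares for replicates 1 and 2 and black lines at the group means. The left panel holds the 4 tested genes, in which the mean of *DKK1* was 13.004 CPM in the controls and 4.06 CPM with Z325, and the right panel, on its own scale, holds the 6 genes with at most 11 counts.

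Per length, *DKK1* was the most abundant member in the NCI-H716 controls, at 9.59 and 11.28 FPKM (fragments scaled by effective gene length and library size). *CXXC4* followed at 3.5 and 4.72 FPKM, *RNF43* at 2.76 and 3.96 FPKM and *ZNRF3* at 0.77 and 0.92 FPKM. Of these neighbours, *CXXC4* and *RNF43* overlapped in their control values and the others did not. *TCF7*, next in that order, reached 0.15 FPKM in a control library and the other members at most 0.06. With Z325, *CXXC4* had 7.63 and 6.30 FPKM, *RNF43* 2.16 and 5.16 FPKM, *DKK1* 2.17 and 3.16 FPKM and *ZNRF3* 0.71 and 0.88 FPKM. *CXXC4* thus stood above the other members in both Z325 libraries, and *RNF43* and *DKK1* overlapped.

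In HCT116, *CXXC4* was found in both controls and in neither Z325 library, *TCF7* was lower in both Z325 libraries than in both controls without passing the test, and *LEF1* was near 0. *CXXC4* had 26 and 17 counts in the controls and 0 and 0 with Z325. In TMM-scaled CPM these were 1.88, 1.302, 0 and 0. It passed the filter on low counts through its control libraries alone, so that among tested genes it had to be higher there. Against the limit of 3 counts over both Z325 libraries, 0.184 CPM, the 43 control counts put *CXXC4* at least 8.69-fold lower with Z325, or 3.12 on the log2 scale. This bound covers counting error in the Z325 libraries only. It leaves out the error of the control counts and the spread between libraries. With Z325 replicate 1 alone the bound was 6.82-fold, and with the shallow Z325 replicate 2 alone it was 1.86-fold. Without control replicate 1 it was 7.08-fold, and without control replicate 2 it was 10.2-fold. *CXXC4-AS1* had 0 and 4 counts in the HCT116 controls and 0 and 0 with Z325.

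*TCF7* (ENSG00000081059, chromosome 5, 134114681 to 134151865, plus strand) encodes the HMG-box factor TCF1, which binds β-catenin at target genes. In HCT116 its counts were 101 and 101 in the controls and 55 and 17 with Z325. In TMM-scaled CPM these were 7.29, 7.74, 4.29 and 4.86. Both Z325 libraries lay below both controls, which 29% of the 6491 genes tested in HCT116 also showed in that direction. The level was 7.52 ± 0.312 CPM in the controls and 4.58 ± 0.402 with Z325 (SD, n = 2), a log2 fold change of -0.73 with a standard error of 0.39. The unadjusted p in edgeR was 0.101 and the adjusted p 0.306. No alternative called it, and its log2 fold change ran from -0.78 to -0.28 over 12 of them. *SKP1*, on the opposite strand, shares 210 exon bases with *TCF7* (2.08%) and had 698, 555, 990 and 110 counts in the same order.

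*LEF1* (ENSG00000138795, chromosome 4, 108047545 to 108168956, minus strand) had 5 counts in HCT116 control replicate 1 and 0 in the other 3 libraries, and it was not tested. *LEF1-AS1*, which shares 5.204% of its exon bases, had 2 counts in that same control library.

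Setting *CXXC4* aside, *TCF7* was the member that could be tested in HCT116, and it was not called, where 5.78% of tested genes had an adjusted p under 0.05, 2.83% higher and 2.94% lower.

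**Figure D2:**
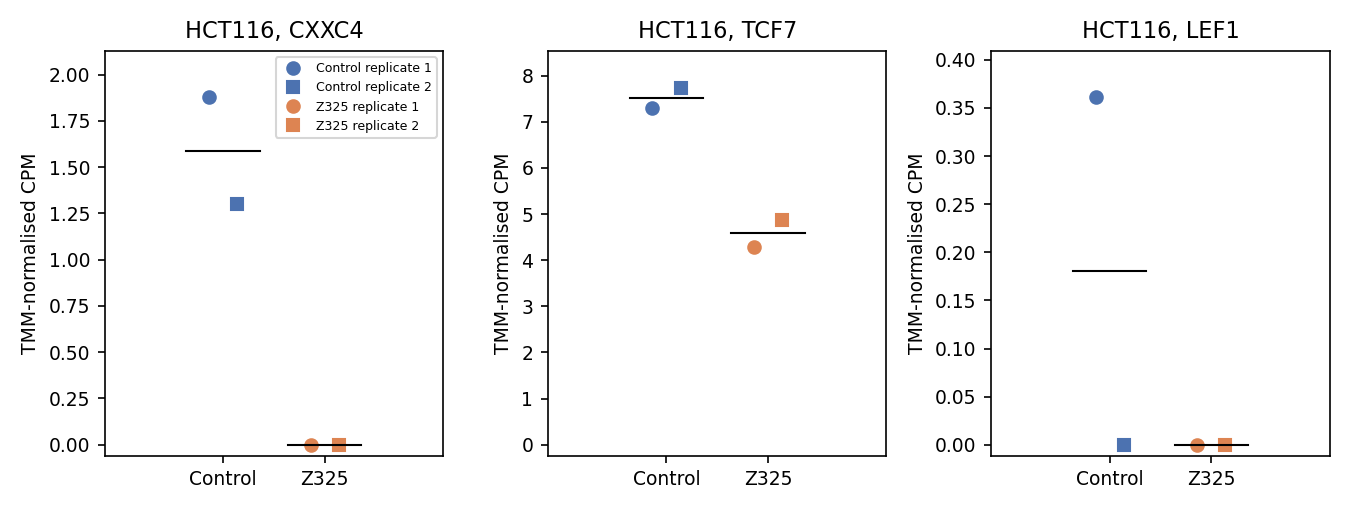
TMM-scaled CPM (vertical axes, linear, a separate scale in each panel) of *CXXC4*, *TCF7* and *LEF1* in the 4 HCT116 libraries, with circles and squares for replicates 1 and 2 and black lines at the group means. *CXXC4* was at 1.88 and 1.302 CPM in the controls and at 0 in both Z325 libraries, and the *TCF7* controls lay at 7.29 and 7.74 CPM against 4.29 and 4.86 CPM with Z325.

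The members were at different levels in the 2 lines. *CXXC4* had a control level of 4.11 ± 0.863 FPKM in NCI-H716 and 0.200 ± 0.0575 FPKM in HCT116 (SD, n = 2). *TCF7* had 0.0750 ± 0.106 FPKM in the NCI-H716 controls and 0.755 ± 0.00626 FPKM in the HCT116 controls. *CXXC4* was thus the higher of the pair in NCI-H716 and *TCF7* in HCT116. These FPKM values come from tables that were made separately, and for HCT116 they were computed here from the deposited counts and gene lengths, so no test was run across the lines. The HCT116 totals used for this cover only the genes listed up to chromosome 9, which raises HCT116 FPKM relative to NCI-H716 FPKM. In NCI-H716 control replicate 1, genes listed in both tables held 5692125 of 13413254 counts.

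The log2 fold change of *CXXC4* with Z325 was 0.58 in NCI-H716. In HCT116 its level was lower by at least 3.12 on the log2 scale, a limit that covers counting error in the Z325 libraries only. Adding the fitted value and the limit gives a difference of 3.70 between the lines. That sum was 3.53 without NCI-H716 control replicate 1, and it was 1.48 without HCT116 Z325 replicate 1, which leaves only the shallow library. That is the contrast on which the gene was chosen, and 0.0654% of 7642 genes had an adjusted p under 0.05 in it. *TCF7* and *LEF1* could not be compared in this way, because neither was tested in NCI-H716.

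The 5 genes whose values over the 8 libraries were most like those of *CXXC4*, after centring log2 CPM within each line, were *MTUS1*, *USP13*, *PRPF3*, *RNASEH1* and *RAB29*, with Pearson correlations of 0.990, 0.978, 0.976, 0.976 and 0.972 among 3323 genes compared. This order is a description over 8 libraries that share their totals and controls, and it depends on the small constant added to the 0 counts of *CXXC4*. In NCI-H716 these genes had log2 fold changes from 0.06 (*USP13*) to 0.32 (*RAB29*). In HCT116 they had log2 fold changes from -2.03 (*MTUS1*) to -0.60 (*PRPF3*). Because the genes were picked on these same values, the directions of their changes are no separate result.

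Around these 10 genes, a list of 123 WNT pathway genes was written by role. In NCI-H716, 70 of them could be tested, 36 with a positive and 34 with a negative log2 fold change, and their median was 0.01 beside -0.01 over all tested genes. At an adjusted p under 0.05 edgeR called 0 of the 70 and DESeq2 called *DKK1*, beside 0.502% and 2.57% of all tested genes. Of the 66 tested list genes that are no members, 8 with a positive and 6 with a negative log2 fold change had an unadjusted p under 0.05, beside 16.9% of all tested genes. Both Z325 libraries lay above both controls for 21 of the 70 and below them for 18, beside 24.3% and 25.1% of all tested genes. In HCT116, 60 were listed and 32 tested, 7 with a positive and 25 with a negative log2 fold change, and the median was -0.32 beside -0.03 over all tested genes, also with *CXXC4* set at its bound. Both Z325 libraries lay above both controls for 2 of the 32 and below them for 16, beside 24.8% and 29% of all tested genes. *CXXC4*, which was chosen on its response, is among the 16 and the 25 in HCT116 and among the 21 and the 36 in NCI-H716. Without the members, 34 log2 fold changes were positive and 32 negative in NCI-H716, and 7 and 23 in HCT116, where the median was -0.30. The medians of the list and of all genes were -0.28 and 0.0044 with DESeq2's size factors and -0.36 and -0.07 with library size scaling. The edgeR test called *FZD6* higher and *WNT16* lower in HCT116, 2 of the 32, beside 5.78% of all tested genes. Of the 30 tested list genes that are no members, 2 with a positive and 8 with a negative log2 fold change had an unadjusted p under 0.05 there, beside 23.9% of all tested genes.

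Among the other inhibitors outside the cell, *SOSTDC1*, a secreted antagonist of WNT and BMP signals, had 8.46 and 8.22 CPM in the NCI-H716 controls and 4.19 and 4.11 CPM with Z325. Its values within each group were close and the groups did not overlap, with a log2 fold change of -1.01, a standard error of 0.30 and an adjusted p of 0.169. *DKK3*, a distant relative of *DKK1*, had a log2 fold change of -0.80 with an adjusted p of 0.363, and 47.5% of its exon bases are shared with *USP47*. Of 18 genes in this role 6 could be tested in NCI-H716, and in 4 of them both Z325 libraries lay below both controls, *DKK1* included, beside 25.1% of all tested genes. The 4 *SFRP* genes, which encode secreted decoys for WNT ligands, had at most 1 count in any NCI-H716 library. In HCT116 none of the 8 inhibitors listed in this role had enough counts to be tested, and the highest count was 12.

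Among the other inhibitors that bind Dishevelled, *CXXC5*, the closest relative of *CXXC4*, had 69.4 and 65.4 CPM in the NCI-H716 controls and 53.3 and 53.4 CPM with Z325. In HCT116 it had 31.5 and 25.7 CPM in the controls and 14.6 and 18.3 CPM with Z325. Both Z325 libraries were below both controls in both lines, as for 25.1% of all tested genes in NCI-H716 and 29% in HCT116. *CXXC5* thus lay on the same side in NCI-H716 and HCT116 where *CXXC4* did not. Its log2 fold changes were -0.34 with a standard error of 0.17 in NCI-H716 (adjusted p = 0.337, edgeR) and -0.81 with a standard error of 0.28 in HCT116 (adjusted p = 0.123, edgeR). The difference between the lines was 0.47 with a standard error of 0.28 and an adjusted p of 0.465. *DACT1*, another Dishevelled antagonist, was tested in NCI-H716 only, with a log2 fold change of 0.84 and an adjusted p of 0.603.

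Other targets also missed the adjusted threshold in NCI-H716, and they did not move in 1 direction. Of 14 tested in this role, both Z325 libraries lay above both controls for 3, *MYC* among them, and below them for 4. Over all tested genes these shares were 24.3% and 25.1%. *SP5*, a repressor that β-catenin induces, had 16.5 and 13.1 CPM in the controls and 8.91 and 8.32 CPM with Z325 (log2 fold change -0.78, SE 0.25, adjusted p = 0.184, edgeR). *CCND1*, which encodes cyclin D1, had 200.1 and 153.1 CPM in the controls and 129.3 and 107.7 CPM with Z325 (log2 fold change -0.58, SE 0.19, adjusted p = 0.185, edgeR). The groups of both genes did not overlap. The log2 fold change of *CCND1* was -0.36 without control replicate 1 and -0.23 with limma on FPKM. In HCT116 the target *ENC1* had 16.0 and 14.7 CPM in the controls and 7.03 and 8.58 CPM with Z325, with a log2 fold change of -0.99, a standard error of 0.33 and an adjusted p of 0.114. *JUN* had a log2 fold change of 1.10 there with an adjusted p of 0.561, from counts of 19, 3, 28 and 4, and it was 2.83 without control replicate 1 and 0.32 without control replicate 2.

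Among ligands, *WNT16* fell in HCT116, from 29.3 and 33.3 CPM in the controls to 10.1 and 15.4 CPM with Z325. Its log2 fold change was -1.33 with a standard error of 0.30 and an adjusted p of 0.0437 in edgeR. Leaving out control replicate 1 gave an adjusted p of 0.217 and leaving out control replicate 2 gave 0.339, and the log2 fold change was -1.41 and -1.23 in these fits. Over all tested HCT116 genes the calls went from 375 to 44 and 23 in the same fits. The call of *WNT16* was lost in 5 of 12 alternatives, while its log2 fold change stayed between -1.61 and -1.03. In NCI-H716, *WNT5A*, a ligand known mostly for signals that bypass β-catenin, had 0.831 and 1.45 CPM in the controls and 3.73 and 3.16 CPM with Z325, a log2 fold change of 1.60 with an adjusted p of 0.184. *WNT2B* had a log2 fold change of 1.43 with an adjusted p of 0.270. Of 19 *WNT* genes listed in NCI-H716, 4 could be tested.

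Among receptors, *FZD6* rose in HCT116, from 98.3 and 96.3 CPM in the controls to 146 and 156 CPM with Z325. The log2 fold change was 0.63 with a standard error of 0.15 and an adjusted p of 0.0479 in edgeR, which became 0.260 without control replicate 1 and 0.341 without control replicate 2. The call of *FZD6* was lost in 8 of 12 alternatives. In NCI-H716, *FZD6* had 6.04 and 3.77 CPM in the controls and 9.98 and 9.48 CPM with Z325, with a log2 fold change of 0.97 and an adjusted p of 0.187, and the difference between the lines was 0.32 with a standard error of 0.32. *FZD5* had a log2 fold change of -1.31 in HCT116 with an adjusted p of 0.101. *LGR4*, a relative of *LGR5* that also binds R-spondins, had 21.1 and 26.2 CPM in the NCI-H716 controls and 33.0 and 39.8 CPM with Z325, with a log2 fold change of 0.62 and an adjusted p of 0.197. *ROR1*, a co-receptor for *WNT5A*, had a log2 fold change of -0.55 with an adjusted p of 0.238 in NCI-H716.

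Inside the cell, *CTNNB1*, which encodes β-catenin, had 58.9 and 75.0 CPM in the NCI-H716 controls and 101.8 and 93.1 CPM with Z325. In HCT116 it had 587.9 and 583.8 CPM in the controls and 478.8 and 469.2 CPM with Z325. Scaled over the genes listed in both tables, its controls had 129.0 and 158.2 CPM in NCI-H716 and 627.0 and 609.8 CPM in HCT116. The groups did not overlap in NCI-H716 or in HCT116. The Z325 libraries lay above the controls in NCI-H716, as for 24.3% of all tested genes, and below them in HCT116, as for 29%. The order of the *CTNNB1* groups was thus opposite between the lines. The log2 fold changes were 0.54 with a standard error of 0.18 in NCI-H716 (adjusted p = 0.197, edgeR) and -0.31 with a standard error of 0.12 in HCT116 (adjusted p = 0.169, edgeR). The difference between the lines, 0.84 with a standard error of 0.21, had an adjusted p of 0.148, which ran from 0.0689 to 0.480 over 15 alternatives. *APC*, the scaffold of the destruction complex, had 49.3 and 39.4 CPM in the HCT116 controls and 24.1 and 27.5 CPM with Z325 (log2 fold change -0.79, adjusted p = 0.0938, edgeR). *CSNK1A1*, the kinase that primes β-catenin for destruction, had a log2 fold change of -0.56 in HCT116 with an adjusted p of 0.0540, and 49.3% of its exon bases are shared with ENSG00000230551. *GSK3B* had a log2 fold change of 0.47 in NCI-H716 with an adjusted p of 0.289.

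Next to *TCF7* and *LEF1*, the related factor *TCF7L1* had 3.90 and 4.06 CPM in the HCT116 controls and 1.56 and 1.72 CPM with Z325, with a log2 fold change of -1.29 and an adjusted p of 0.209. Both *TCF7* and *TCF7L1* were thus below their controls in both HCT116 Z325 libraries. Of 5 nuclear effectors tested in HCT116, 4 showed this separation, beside 29% of all tested genes, and all 5 had a negative log2 fold change, beside 51.8%. So did 3 of 4 genes in the ligand role, 3 of 5 in the destruction complex, 2 of 7 receptors and 1 of 6 other targets for the separation. In NCI-H716, 2 of 4 tested nuclear effectors lay above their controls, 1 below and 1 overlapped. Among nuclear repressors, *CTNNBIP1*, which keeps β-catenin from TCF factors, had 8.88 and 12.9 CPM in the HCT116 controls and 18.7 and 20.03 CPM with Z325 (log2 fold change 0.83, adjusted p = 0.162, edgeR). *TLE5*, a relative of the TLE co-repressors, ran from 52.7 and 22.5 CPM in the NCI-H716 controls to 18.4 and 9.28 CPM with Z325, with a log2 fold change of -1.46 and an adjusted p of 0.146, and its log2 fold change was -0.70 without control replicate 1 and -2.01 without Z325 replicate 1. *CBY1*, which carries β-catenin out of the nucleus, had a log2 fold change of 0.35 and an adjusted p of 0.422. Genes on the opposite strand share 44.8% of the exon bases of *CBY1*, 21.5% of those of *WNT2B*, 12.7% of those of *CTNNBIP1*, 10.8% of those of *TLE5* and 10.4% of those of *CCND1*, so their reads are uncertain.

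**Figure D3:**
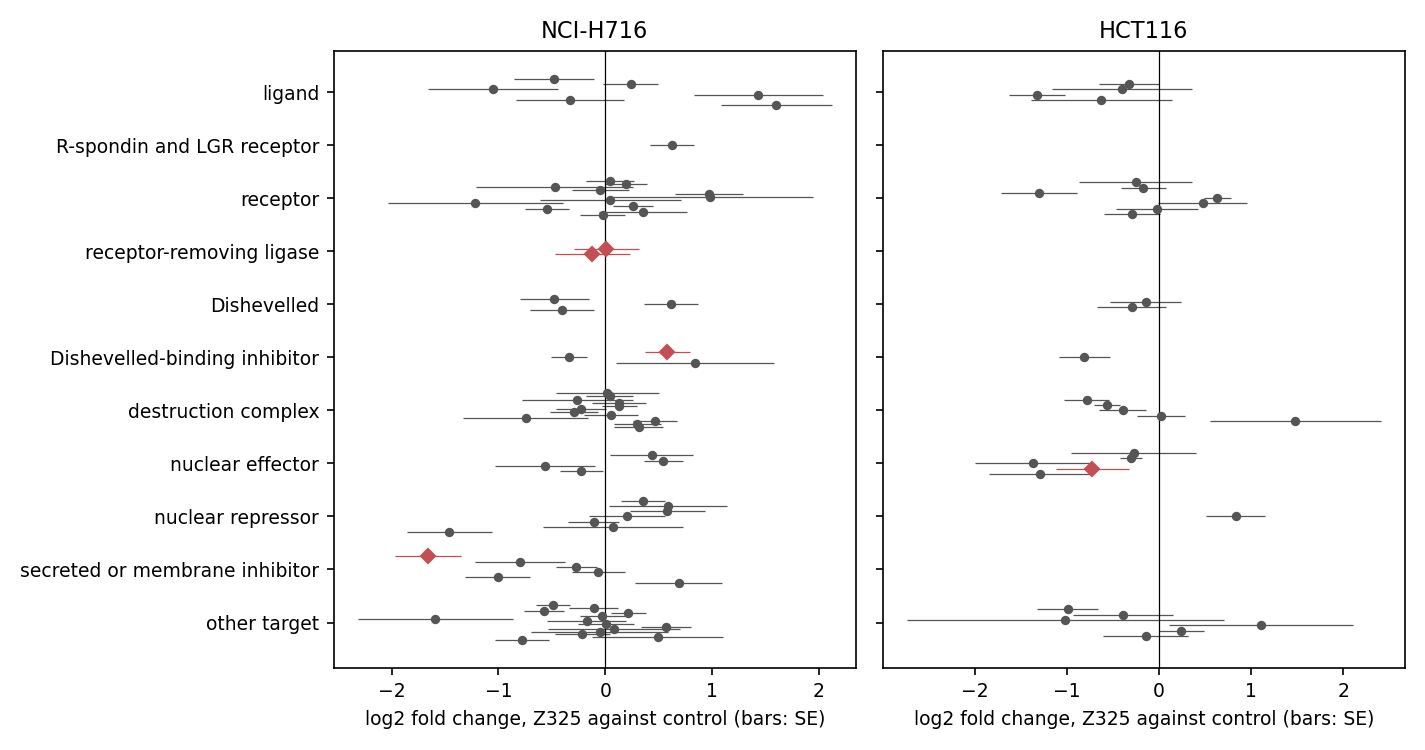
Log2 fold change with Z325 (horizontal axis, bars are standard errors) of each tested WNT list gene by role in NCI-H716 (70 genes) and HCT116 (31 of 32, without *CXXC4*, whose fitted value is no bound). Red diamonds mark members and grey dots the other genes, and *DKK1* at -1.66 lies farthest to the left among the members.

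**Figure D4:**
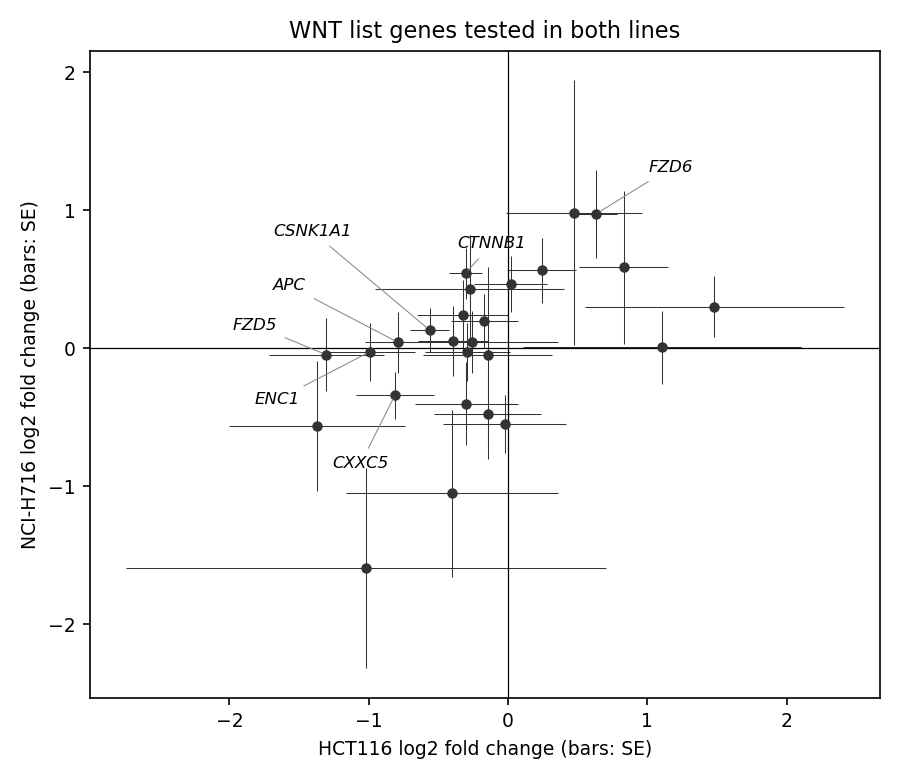
Log2 fold change with Z325 in HCT116 (horizontal axis) and NCI-H716 (vertical axis) for the 26 WNT list genes tested in both lines without *CXXC4*, with bars for standard errors. *CTNNB1* lies at -0.31 and 0.54, *CXXC5* at -0.81 and -0.34 and *FZD6* at 0.63 and 0.97.

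The remaining genes that were named by role also missed the adjusted threshold. In NCI-H716, *DVL2* had a log2 fold change of 0.62 (adjusted p = 0.268, edgeR) and *DVL1* -0.48 (adjusted p = 0.485, edgeR), both of them Dishevelled genes. *TNKS2*, a tankyrase that marks AXIN for destruction, had 0.31 (adjusted p = 0.514, edgeR) and *PYGO2*, a nuclear co-activator, -0.56 (adjusted p = 0.577, edgeR). In HCT116, the log2 fold changes of *DVL1*, *DVL3* and *WLS*, the carrier that brings WNT ligands to the surface, were -0.15, -0.30 and -0.33, with adjusted p of 0.870, 0.686 and 0.599. Several of these values moved when a library was left out. In NCI-H716, *PYGO2* ran from -1.28 to -0.03, *DVL1* from -0.77 to -0.13, *DKK3* from -1.08 to -0.51, *DACT1* from 0.53 to 1.32, *GSK3B* from 0.29 to 0.68 and *TNKS2* from 0.20 to 0.44. In HCT116, *DVL3* ran from -0.51 to -0.06 and *DVL1* from -0.26 to -0.04.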

How the data were processed

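RNA was sequenced from 8 libraries made by the SMART-Seq2 protocol, whose kit does not mark strand. For NCI-H716, the authors deposited the output of RSEM for each library, which holds expected counts (estimated, 6.65% of them not whole), TPM and FPKM per gene. For HCT116, the authors deposited read counts in the layout of featureCounts. The study's methods name TrimGalore, STAR on GRCh38 and RSEM, while the submitters' processing notes name Bowtie2 2.5.0, featureCounts and hg38. How reads shared between genes were counted is not given in the sources used here. The HCT116 table used here ends on chromosome 9, of which 65 genes were used, and 4 broken or unfinished lines were left out.

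After rounding of the expected counts, each line was fitted alone in edgeR 4.0.16 (R 4.3.3) with TMM scaling, filterByExpr and the quasi-likelihood test, with Benjamini-Hochberg adjustment over all tested genes. Log2 fold changes and standard errors are those of the fit, and CPM values are TMM-scaled except for marker sums and the limits of 0 counts per library, which use library totals. FPKM of HCT116 were computed from counts, gene lengths and the listed totals. The difference between the lines was the interaction of treatment and line over all 8 libraries. Gene positions and shared exon bases follow GENCODE v44, and promoter windows are from RefSeq.

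The members, the WNT list and the tests were chosen with earlier results of these data known. Named genes are the members, list genes at an adjusted p under 0.05, in each role and line the 2 genes with the smallest p that are no members, and the 5 genes most like *CXXC4* with at least 10 CPM on average in each line. The alternatives were DESeq2 1.42.0, no filter, library size scaling, at least 10 counts in all libraries of the fit, limma 3.58.1 on log2(FPKM + 1) or log2(FPKM + 0.1), TPM in place of FPKM, a replicate block, all 8 libraries in 1 fit and leaving out each library. The steps were checked on simulated data. Figures were drawn with matplotlib 3.10.9, and tables were handled in Python 3.11.15 with pandas 2.3.3.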

Additional observations from a re-analysis of the deposited data

Results flagged for a closer look

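*CXXC4* moved in opposite directions in the 2 lines. Both Z325 libraries of NCI-H716 lay above both controls, as did those of 24.3% of all tested genes. Both Z325 libraries of HCT116 lay below both controls, as did those of 29% of all tested genes. In HCT116 *CXXC4* passed the filter on low counts through its control libraries alone, so among tested genes it had to be higher there. The fitted log2 fold change in NCI-H716 and the limit in HCT116 add up to a difference of 3.70. The gene was chosen on this contrast, so no test of it is given. The HCT116 side rests on 43 control counts against 0. With the shallow HCT116 Z325 replicate 2 as the only treated library there, the sum was 1.48.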

How the results depend on the processing

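In all, 55 gene-level results were recomputed in 690 combinations with alternatives, and 49 of them kept their direction throughout. The reversals, all of values that had not passed the test, came with the replicate block for *RNF43* in NCI-H716 (-0.046), without a filter for the difference between the lines of *DVL3* (0.010), and on leaving out a library. Over the fits without a library, *RNF43* in NCI-H716 ran from -0.48 (without Z325 replicate 2) to 0.38 and was -0.10 without control replicate 1, and *ZNRF3* ran from -0.34 to 0.14 (without control replicate 2). Differences between the lines ran from -0.42 to 0.21 for *DVL3* (without NCI-H716 Z325 replicate 2; also 0.12 without HCT116 Z325 replicate 2 and 0.13 without NCI-H716 control replicate 1), from -0.87 to 0.17 for *ROR1* (without HCT116 Z325 replicate 1), from -0.73 to 0.59 for *CTNNBIP1* (without NCI-H716 control replicate 1) and from -0.60 to 0.0063 for *DVL1* (without NCI-H716 control replicate 2). A call was lost in 22 combinations and gained in 39, and the cause was not tested. Where a library was left out, the lone library was assumed to vary like the other groups. The lost and gained calls include those of *CXXC4*, which was chosen on its response.

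The 71 genes called in NCI-H716 (80.3% higher) became 364 with DESeq2 (47.5% higher), 777 without a filter (37.3% higher), 6 with limma at either constant, 19 with all 8 libraries in 1 fit and 38 to 1386 on leaving out a library, lowest without control replicate 1 and highest without Z325 replicate 1. The 375 called in HCT116 became 767 with DESeq2, 615 with at least 10 counts in every library, 683 without a filter (38.1% higher, against 49.1%), 47 and 37 with limma at constants of 1 and 0.1, and 23 to 1075, lowest without control replicate 2 and highest without Z325 replicate 2. The 5 called between the lines became 137 with DESeq2, 25 with at least 10 counts, 106 without a filter, 2 with limma at either constant, and 0 to 61, with 721 to 1000 genes at an unadjusted p under 0.05 in edgeR where the count was 0. *CXXC4* was chosen on this difference, so its calls between the lines under the alternatives are not given. Its fitted difference ran from 0.91 to 7.68 over 14 alternatives and is no bound.

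Of the WNT list in NCI-H716, 0 were called, 1 with DESeq2 and 1 with library size scaling (*DKK1* in both), 2 without a filter (*DKK1*, *TLE5*) and 0 to 4 on leaving out a library, with *DKK1* called without either Z325 library, *TLE5* without control replicate 2 or either Z325 library, and *CCND1* and *MYC* without Z325 replicate 1. In HCT116, 2 became 4 with DESeq2, 0 with limma at either constant and 4 with all 8 libraries in 1 fit. On leaving out a library the count ran from 0 to 9. It was 0 without either control and 6 without Z325 replicate 1 (*CSNK1A1*, *FZD5*, *FZD6*, *MYC*, *TNKS*, *WNT16*). Without Z325 replicate 2 it was 9 (*APC*, *CSNK1A1*, *CXXC5*, *ENC1*, *FZD6*, *PYGO2*, *RYK*, *WNT16* and *CXXC4*). *CXXC4* is included in the 9 and in the 4 of the fit of all 8 libraries. *CXXC4* was chosen on its response, and among the HCT116 libraries it had counts only in the controls, so these calls of it are no result.

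Samples of the 2 groups of a line share only a replicate number. The deviations of same-numbered libraries correlated at 0.498 over 7777 genes in NCI-H716 and at -0.0290 over 3734 genes in HCT116. With the replicate block, 2397 of 14142 tested genes were called in NCI-H716 (44.3% higher) and 12 between the lines. Of the 70 WNT list genes tested in NCI-H716, 14 were called with the block (7 higher and 7 lower). In HCT116, 1 of 32 was, beside 177 higher and 204 lower among all 6491 tested genes. The 14 include *CXXC4*, which was chosen on its response. The depth of HCT116 Z325 replicate 2 limits what a count of 0 shows there.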
